A study of Mus musculus with 24 samples.

Results

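The enzymes that turn arachidonic acid into leukotrienes and prostaglandins, and the enzyme that begins to break prostaglandins down, were followed in aged mouse lung exposed to house-dust mite (HDM). The 10 genes were taken by symbol from the normalized table (Alox5, Alox5ap, Ltc4s, Lta4h, Alox12, Ptgs1, Ptgs2, Ptges, Ptgis and Hpgd). All 10 were found among the 23891 genes of the table, and all 10 passed a filter of a mean of at least 1 CPM, as did 17744 genes in all. CPM are reads of a gene scaled to the same total in every sample.

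Lung RNA (left lobe) came from C57BL/6 mice in 4 groups. Naïve adult mice (20 wk by the labels, n = 5) and naïve aged mice (80 wk, n = 5) received saline. The other aged mice (80 wk) were given repeated intranasal HDM at 50 µg per dose, either alone (HDM, n = 7) or together with the synthetic glucocorticoid dexamethasone, dosed at 4 mg/kg with 72 h between doses (HDM + Dex, n = 7), and were studied 24 h after the last HDM dose. Lungs of adult mice with HDM were not analysed here, so the response to HDM was not compared between ages. By Xist and Ddx3y, 5 of 5 naïve adult, 2 of 5 naïve aged, 2 of 7 HDM and 4 of 7 HDM + Dex mice were female.

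Arachidonic acid is released from membranes and enters either branch of this pathway. In the leukotriene branch, 5-lipoxygenase, helped by its membrane partner FLAP, makes leukotriene A4, which becomes either leukotriene B4, an attractant of neutrophils, or the cysteinyl leukotrienes, which constrict airways. In the prostaglandin branch, cyclooxygenases make prostaglandin H2, from which separate synthases make prostaglandin E2, prostacyclin and thromboxane, and 15-hydroxyprostaglandin dehydrogenase, abundant in lung, oxidizes prostaglandins to products with little activity.

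7SL RNA (Rn7s1 and Rn7s2), a non-coding RNA, took 9.92% to 18.1% of all CPM in naïve aged lungs and 14.96% to 34.0% in HDM lungs, which lowers the CPM of every other gene in proportion. Over all genes tested, the log2 fold changes had a median of -0.23 in HDM vs. naïve aged, 0.033 in HDM + Dex vs. HDM, -0.19 in HDM + Dex vs. naïve aged and 0.19 in naïve aged vs. naïve adult. After rescaling by median-of-ratios factors, which sets the typical gene equal between samples, these medians were -0.0071, -0.0034, -0.0091 and 0.0057. Changes are therefore given for CPM as deposited and for rescaled CPM, always as log2 of (CPM + 1). Estimated depth ran from 10.1 to 33.1 M reads, and Ltc4s, the member with the lowest mean CPM, had 5.11 to 120 estimated reads per lung. In the HDM group, the 5 lungs with a 7SL share over 25% were the 5 male ones and the 2 below it were the 2 female ones, so that sex and 7SL share cannot be told apart there. Alveolar type 2 markers were present in every group, with a summed CPM of 5 genes between 2534 and 11669.

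Promoters are shown for the 5 members that passed the test in HDM vs. naïve aged under at least 1 scaling and have an entry among the RefSeq promoters of GRCm38.p6. The 250 bases before the RefSeq start site were read at chr8:56294302-56294551 (plus strand) for Hpgd, chr11:70255371-70255620 (minus strand) for Alox12, chr2:30903298-30903547 (minus strand) for Ptges, chr10:93453146-93453395 (plus strand) for Lta4h and chr2:36230176-36230425 (plus strand) for Ptgs1. They are printed 5′ to 3′ along the transcript, with matches to a searched motif in capitals. The GENCODE annotation of Ptges begins further upstream than this window.
Hpgd: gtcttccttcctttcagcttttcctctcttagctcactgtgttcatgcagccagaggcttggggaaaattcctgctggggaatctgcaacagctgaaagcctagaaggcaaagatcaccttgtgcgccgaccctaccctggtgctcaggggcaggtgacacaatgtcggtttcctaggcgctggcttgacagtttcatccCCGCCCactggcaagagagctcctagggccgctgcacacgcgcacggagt
Alox12: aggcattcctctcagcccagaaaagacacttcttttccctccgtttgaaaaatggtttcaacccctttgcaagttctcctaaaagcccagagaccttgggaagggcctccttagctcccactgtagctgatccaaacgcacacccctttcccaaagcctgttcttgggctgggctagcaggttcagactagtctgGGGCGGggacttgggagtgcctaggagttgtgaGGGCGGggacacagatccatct
Ptges: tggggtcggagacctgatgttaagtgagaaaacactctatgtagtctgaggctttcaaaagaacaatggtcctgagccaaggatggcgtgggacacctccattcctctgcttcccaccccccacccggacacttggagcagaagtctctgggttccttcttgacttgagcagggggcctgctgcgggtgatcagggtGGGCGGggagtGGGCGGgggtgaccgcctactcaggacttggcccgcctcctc
Lta4h: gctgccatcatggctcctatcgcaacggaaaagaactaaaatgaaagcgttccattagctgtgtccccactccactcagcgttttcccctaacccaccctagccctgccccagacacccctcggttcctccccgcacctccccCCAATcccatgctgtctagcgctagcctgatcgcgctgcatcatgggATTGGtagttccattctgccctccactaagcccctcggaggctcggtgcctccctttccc
Ptgs1: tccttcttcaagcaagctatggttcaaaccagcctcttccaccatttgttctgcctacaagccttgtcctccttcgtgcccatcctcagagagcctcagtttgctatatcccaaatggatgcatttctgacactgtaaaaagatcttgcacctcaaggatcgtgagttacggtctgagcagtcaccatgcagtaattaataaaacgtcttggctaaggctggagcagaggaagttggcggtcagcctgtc

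Letters were searched on both strands in 32851 mouse promoter windows of 300 bases, from 250 before to 50 after the start. The GC box GGGCGG was held by 5 of the 8 members with an entry (Hpgd, Alox12, Ptges, Alox5 and Ptgs2) and by 35.7% of all windows. It stood on the minus strand in Hpgd, where it reads CCGCCC, and 2 copies each lay before the start of Alox12 and Ptges. CCAAT was held only by Lta4h among the 8 members, at 2 places, and by 37.4% of all windows. TATAAA was found in Hpgd alone of the 8, at bases 5 to 10 after the RefSeq start, and in 13.6% of all windows. Ptgs2 held TGACG (20.8% of windows) and CACGTG (7.15%) after its start, in overlapping bases 14 to 18 and 17 to 22. The full palindromic glucocorticoid response element was in none of the 8 and in 0.00913% of all windows. These are matches of letters only.

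In HDM vs. naïve aged, Hpgd was the member with the largest change. Its level fell to 0.402 of that in naïve aged lungs as deposited and to 0.480 after rescaling, and the groups did not overlap under either scaling. Of all genes, 8.71% did not overlap between these groups as deposited and 7.83% after rescaling. Alox12 was also lower as deposited. After rescaling, Alox5ap, Lta4h, Ptgs1 and Ptges were higher. With CPM as deposited, limma called 2 of 10 members, both lower (adjusted p under 0.05), where 25.3% of all genes were called in either direction and 21.2% lower. After rescaling, 4 of 10 members were called higher and 1 lower, where 11.0% of all genes were called higher and 11.5% lower. The median log2 fold change of the 10 members was -0.14 as deposited and 0.049 after rescaling, beside -0.23 and -0.0071 for all genes. These are RNA amounts of whole lung, in which fewer cells of a type and less RNA per cell cannot be told apart.

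**Figure D1:**
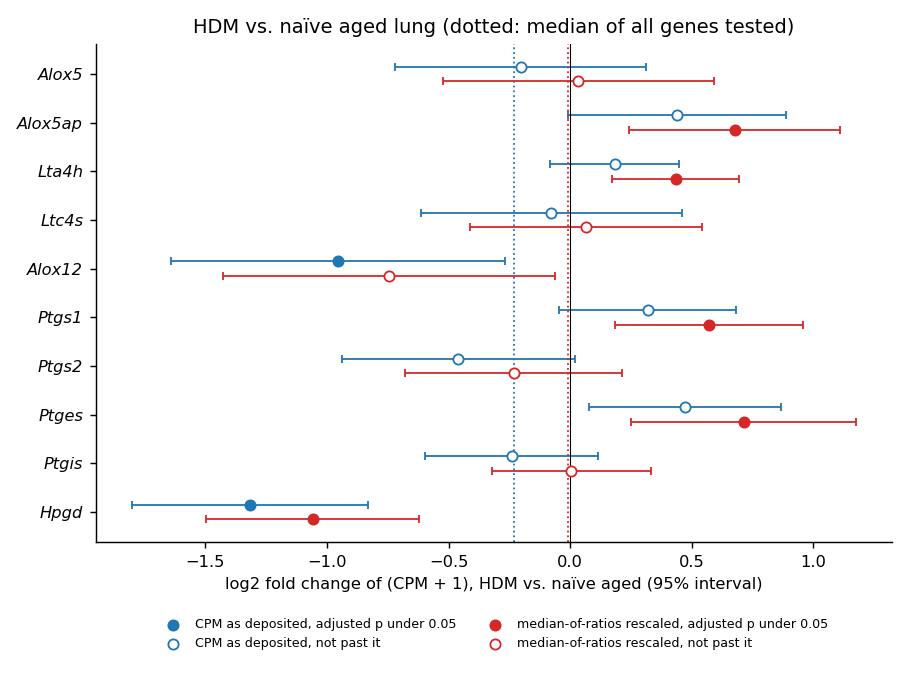
Log2 fold changes of (CPM + 1) for the 10 genes in HDM (n = 7) vs. naïve aged (n = 5) lung with 95% intervals from limma, for CPM as deposited (blue) and after median-of-ratios rescaling (red); filled points have an adjusted p under 0.05 and dotted lines mark the median of all 17744 genes. Hpgd is filled under both scalings, Alox12 as deposited only, Alox5ap, Lta4h, Ptgs1 and Ptges after rescaling only, and Alox5, Ltc4s and Ptgis change sign between the scalings.

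Within the leukotriene branch, Lta4h, the hydrolase that makes leukotriene B4 (chromosome 10, plus strand), had 34.2, 38.8, 30.9, 41.1 and 39.1 CPM in the 5 naïve aged lungs and a lowest, median and highest value of 35.7, 43.3 and 47.1 CPM in the HDM lungs. These values overlapped, and the log2 fold change was 0.18 ± 0.13 (SE; adjusted p = 0.297, limma). After rescaling, the lowest HDM lung (39.2) lay above the highest naïve aged lung (36.8), and the log2 fold change was 0.43 ± 0.13 (adjusted p = 0.0172). Groups that do not overlap were found for 8.71% of all genes as deposited and 7.83% after rescaling. Without naïve aged replicate 3, the lowest of its group, the rescaled difference had an adjusted p of 0.0636.

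Alox5ap encodes FLAP, which presents arachidonic acid to 5-lipoxygenase. Its CPM were 12.3, 14.98, 6.87, 17.1 and 14 in naïve aged lungs and 13.7, 15.3 and 31.3 (lowest, median, highest) in HDM lungs, with HDM replicate 7 far above the others. The log2 fold change was 0.44 ± 0.22 (adjusted p = 0.134) as deposited and 0.68 ± 0.21 (adjusted p = 0.0239) after rescaling, and 33 of 35 pairs of an HDM and a naïve aged lung were then higher in HDM. The rescaled call was lost without naïve aged replicate 1 (adjusted p = 0.0537) or replicate 3 (0.0947), and it held in the other 17 fits that left out 1 lung. Beside it, the summed CPM of 7 macrophage markers ran from 228 to 311 in naïve aged and from 241 to 802 in HDM lungs, 3 of the 7 were called higher (Cd68, Csf1r and Itgax; 5 of 7 after rescaling), and all 7 were above 0 in every lung. Relative to that sum within each lung, Alox5ap stood at -4.41 ± 0.59 on the log2 scale (SD, n = 5) in naïve aged and -4.88 ± 0.54 (n = 7) in HDM lungs, with overlap. Over 24 lungs with group means removed, the Pearson r of Alox5ap with the mean of these macrophage markers was 0.30. With the mean of 6 neutrophil markers it was 0.63. Of those 6, 3 were called lower in HDM as deposited and 2 after rescaling, and 0 higher. The part of either cell type was not tested. Of all genes, 25.3% were called in either direction as deposited, and 11.0% higher and 11.5% lower after rescaling.

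Alox5, 5-lipoxygenase itself, showed no such difference. Its CPM ran from 8.27 to 16.9 in naïve aged and from 4.73 to 20.4 in HDM lungs, with a log2 fold change of -0.20 (95% interval -0.72 to 0.31) as deposited and 0.033 (-0.52 to 0.59) after rescaling. Ltc4s, leukotriene C4 synthase, was at 0.822 to 2.88 CPM in naïve aged and 0.942 to 3.63 CPM in HDM lungs, with a log2 fold change of -0.078 (-0.61 to 0.46) as deposited and 0.066 (-0.41 to 0.54) after rescaling. For both genes the sign of the change depended on the scaling and the groups overlapped.

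Alox12, the 12-lipoxygenase of platelets (chromosome 11, minus strand), had 10.4, 10.3, 9.14, 3.82 and 13.0 CPM in naïve aged lungs. In HDM lungs the lowest, median and highest values were 1.94, 4.11 and 11.99 CPM, and HDM replicates 3, 4 and 5 were at or below 2.09. The groups overlapped through naïve aged replicate 4, which was low in its group, and HDM replicate 7, which was high in its own. The log2 fold change was -0.96 ± 0.33 (adjusted p = 0.0382) as deposited and -0.75 ± 0.33 (adjusted p = 0.106) after rescaling. Leaving out naïve aged replicate 1, 2, 3 or 5, or HDM replicate 1, 3, 4 or 5, also lost the deposited call, with adjusted p values of 0.0576 to 0.103. Among males, HDM lungs (1.94 to 7.36 CPM, n = 5) lay below naïve aged lungs (10.3 to 13.0, n = 3), with no test. After rescaling, the male ranges lay closer together, at 2.16 to 8.13 with HDM and 9.10 to 10.9 without. Among females the HDM lungs (4.18 and 11.99) and the naïve aged lungs (3.82 and 9.14) overlapped. Groups this small often separate by chance, and the share of all genes that do so among males was not computed. Sex and 7SL share cannot be told apart in the HDM group, and a difference between the sexes was not tested.

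Alox12 varied between lungs together with platelet genes. Over 24 lungs, with group means removed, the genes most like Alox12 were Itga2b (Pearson r = 0.86), Vamp5 (0.82) and Gp6 (0.82), of which Itga2b and Gp6 encode platelet membrane receptors. Its r with the mean of 6 platelet markers, which include Itga2b and Gp6, was 0.87. With the mean of 6 endothelial markers its r was 0.63, and with Hpgd 0.58. These are descriptions over lungs that share libraries and total counts. The summed CPM of the 7 platelet markers was 36.8 to 60.8 in naïve aged and 26.1 to 73.6 in HDM lungs, and 1 of the 6 tested (Ppbp) was called lower as deposited, beside 21.2% of all genes. Relative to that sum within each lung, a measure that no rescaling alters, Alox12 stood at -2.55 ± 0.41 on the log2 scale (SD, n = 5) in naïve aged and -3.22 ± 0.62 (n = 7) in HDM lungs, and these values overlapped. Platelet content was not measured otherwise, and its part in the result was not tested.

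The cyclooxygenases moved in different ways. Ptgs1, the constitutive enzyme, had 27.7, 34.2, 41.0, 49.9 and 73.4 CPM in naïve aged lungs and 41.3, 56.7 and 64.5 (lowest, median, highest) in HDM lungs. The naïve aged lungs spread over a wide range, and replicate 5 lay above every HDM lung. The log2 fold change was 0.32 ± 0.18 (adjusted p = 0.181) as deposited and 0.57 ± 0.19 (adjusted p = 0.0314) after rescaling. Without naïve aged replicate 5 the deposited difference passed (adjusted p = 0.0247), and the rescaled one did not without naïve aged replicate 1, 2 or 3 or HDM replicate 3, 4 or 5 (adjusted p = 0.0564 to 0.122). Relative to the summed macrophage markers within each lung, Ptgs1 stood at -2.64 ± 0.60 on the log2 scale (SD, n = 5) in naïve aged and -3.25 ± 0.45 (n = 7) in HDM lungs, with overlap. The part of macrophages in the Ptgs1 values was not tested. Ptgs2, the inducible enzyme, was not higher in HDM lungs: its CPM were 11.1, 9.80, 9.67, 9.75 and 7.52 in naïve aged lungs against 3.08, 7.25 and 9.95 (lowest, median, highest) in HDM lungs. Its log2 fold change was -0.46 (95% interval -0.94 to 0.018; adjusted p = 0.142) as deposited and -0.23 (-0.68 to 0.21; adjusted p = 0.463) after rescaling.

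Of the terminal synthases, Ptges, which makes prostaglandin E2 from prostaglandin H2, had 12.7, 17.4, 14.9, 12.01 and 15.4 CPM in naïve aged lungs and 14.995, 19.9 and 26.8 (lowest, median, highest) in HDM lungs. In 33 of 35 pairs the HDM lung was higher. The log2 fold change was 0.47 ± 0.19 (adjusted p = 0.0727) as deposited and 0.71 ± 0.22 (adjusted p = 0.0257) after rescaling. A single lung could move this call either way: as deposited it passed without HDM replicate 2, HDM + Dex replicate 2 or HDM + Dex replicate 5 (adjusted p = 0.0438 to 0.0471), and rescaled it failed without naïve aged replicate 1, 3 or 4 or HDM replicate 3 (0.0535 to 0.0670). Relative to the summed macrophage markers, Ptges stood at -4.21 ± 0.37 on the log2 scale (SD, n = 5) in naïve aged and -4.65 ± 0.46 (n = 7) in HDM lungs, with overlap. The part of macrophages in the Ptges values was not tested. Ptgis, prostacyclin synthase, had 17.7 to 31.0 CPM in naïve aged and 13.9 to 24.1 CPM in HDM lungs, with a log2 fold change of -0.24 (95% interval -0.60 to 0.11) as deposited and 0.0047 (-0.32 to 0.33) after rescaling.

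**Figure D2:**
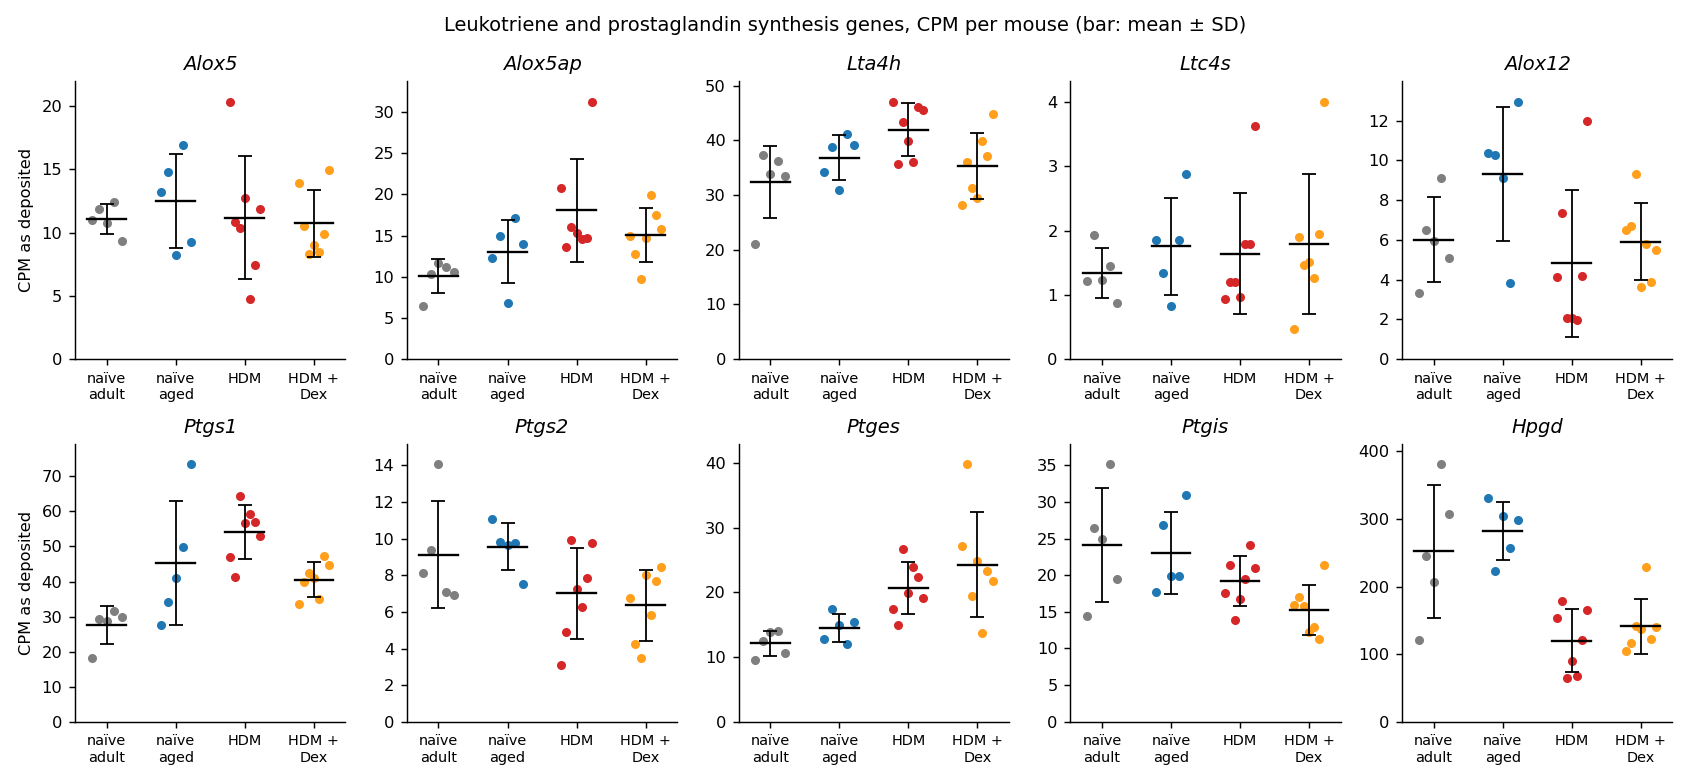
CPM as deposited of the 10 genes in each lung (points), with the mean and SD of each group (black), for naïve adult (n = 5), naïve aged (n = 5), HDM (n = 7) and HDM + Dex (n = 7) mice; each axis starts at 0. Hpgd separates all 7 HDM lungs (64.6 to 179 CPM) from the 5 naïve aged lungs (223 to 331 CPM), as do 8.71% of all genes in either direction, while the other 9 genes overlap between these groups at this scaling.

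Hpgd, 15-hydroxyprostaglandin dehydrogenase (GRCm38 chromosome 8, 56294585 to 56321043, plus strand), had 331, 223, 304, 257 and 298 CPM in naïve aged lungs. In HDM lungs the lowest, median and highest values were 64.6, 121 and 179 CPM, so that in 35 of 35 pairs the HDM lung was lower. Such a lack of overlap, in either direction, was found for 8.71% of all genes as deposited. The log2 fold change was -1.32 ± 0.23 (adjusted p = 0.000869) as deposited and -1.06 ± 0.21 (adjusted p = 0.00175) after rescaling, where HDM lungs ran from 75.5 to 197 and naïve aged lungs from 211 to 290. The call held in all 34 alternative fits of the deposited comparison, with adjusted p values from 3.42e-05 to 0.0372. Within each sex the groups did not overlap, with no test: females had 121 and 165 CPM with HDM against 257 and 304 without, and males 64.6 to 179 (n = 5) against 223 to 331 (n = 3). Groups this small often separate by chance, and the share of all genes that do so within a sex was not computed. The 2 HDM lungs with a 7SL share below 25%, the range of all naïve aged lungs, were those 2 females. Gm45540 overlaps Hpgd on the same strand, and how the counting treated strand and shared reads is not given in the sources used here.

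Hpgd was also set beside markers of the cells that line vessels. Over 24 lungs with group means removed, the genes most like Hpgd were Tmem100 (Pearson r = 0.87), Stmn2 (0.84) and Cavin2 (0.83). The r of Hpgd with the mean of 6 endothelial markers was 0.54, and with the mean of 6 platelet markers 0.56. Of all genes tested, 21.2% were called lower in HDM vs. naïve aged as deposited and 11.5% after rescaling. The summed CPM of the endothelial markers was 1414 to 1993 in naïve aged and 853 to 1464 in HDM lungs, and 5 of 6 were called lower (Pecam1, Cdh5, Tek, Kdr and Cldn5), 2 of 6 after rescaling. Relative to that sum within each lung, Hpgd stood at -2.60 ± 0.043 on the log2 scale (SD, n = 5) in naïve aged lungs and at -3.33 ± 0.40 (n = 7) in HDM lungs. The highest HDM lung (-2.82) lay below the lowest naïve aged lung (-2.67), so Hpgd was lower in HDM relative to the endothelial markers. Naïve adult lungs spread from -3.27 to -2.31 on the same measure and overlapped both groups. How often other genes would separate the groups relative to the endothelial sum was not computed. Relative to the summed alveolar type 2 markers, Hpgd was at -4.60 ± 0.43 in naïve aged and -5.46 ± 0.51 in HDM lungs, with overlap. Relative to the airway epithelium markers the order was the opposite, at -4.34 ± 0.19 in naïve aged and -3.16 ± 0.76 in HDM lungs, with overlap. Markers of other tissue also moved with HDM. The summed CPM of 4 airway epithelium markers was 4669 to 6675 in naïve aged and 295 to 2779 in HDM lungs, with 4 of 4 called lower (3 of 4 after rescaling). That of 6 heart muscle markers was 566 to 1040 and 21.5 to 425, with 6 of 6 called lower under both scalings, and the part of either in the Hpgd values was not tested.

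**Figure D3:**
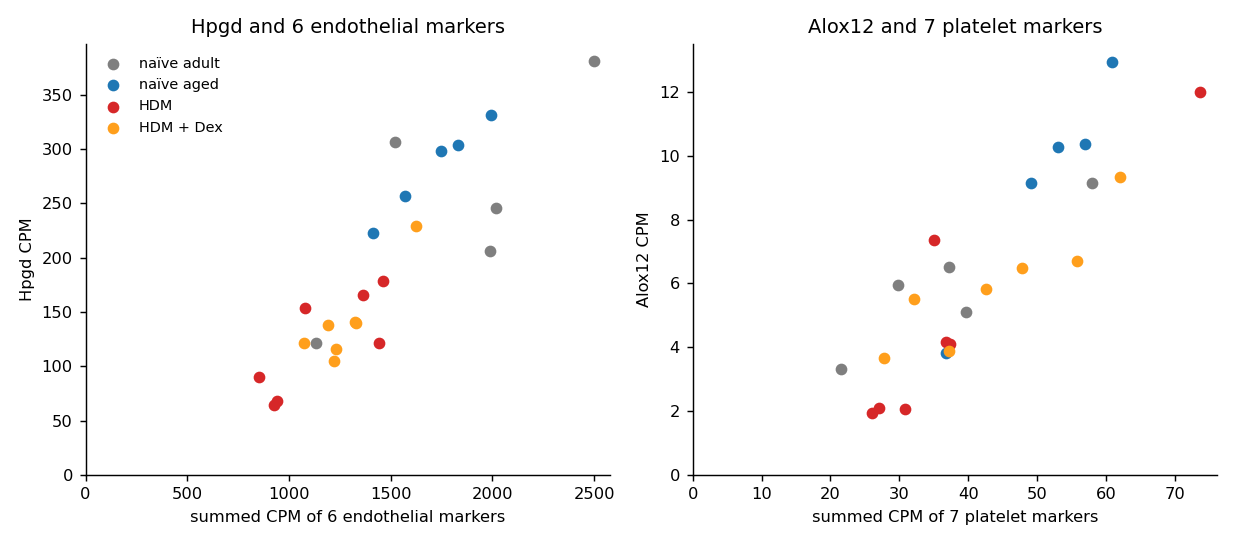
Left, Hpgd CPM against the summed CPM of 6 endothelial markers; right, Alox12 CPM against the summed CPM of 7 platelet markers; each point is 1 lung, coloured by group, and all axes start at 0. All HDM and HDM + Dex lungs have less Hpgd per endothelial sum (log2 ratios up to -2.82) than all naïve aged lungs (from -2.67), and the HDM lungs span 26.1 to 73.6 CPM of platelet markers.

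With Dex added to HDM, none of the 10 members was called against HDM alone, under either scaling (limma; lowest adjusted p = 0.242 as deposited and 0.156 after rescaling). Of all genes, 0.964% were called as deposited and 2.85% after rescaling. At an unadjusted p under 0.05, 2 members were lower with Dex as deposited (Ptgs1 and Lta4h) and 3 after rescaling (Ptgs1, Lta4h and Ptgis), where 13.5% and 18.6% of all genes had such a p. Ptgs1 had 33.7, 40.9 and 47.2 CPM (lowest, median, highest) in HDM + Dex lungs, below HDM in 45 of 49 pairs, with a log2 fold change of -0.40 (95% interval -0.74 to -0.071). Lta4h had 28.2, 35.9 and 44.9 CPM, below HDM in 39 of 49 pairs, with a log2 fold change of -0.25 (-0.50 to -0.010). Ptgis, at 11.3, 15.8 and 21.4 CPM, had a log2 fold change of -0.32 (-0.65 to 0.0013). Hpgd had 105, 138 and 229 CPM and a log2 fold change of 0.29 (-0.15 to 0.74) against HDM. For Ptgs2 the 95% interval of the log2 fold change was -0.54 to 0.34, and for Ptges it was -0.18 to 0.55.

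Set against naïve aged lungs, HDM + Dex lungs had 1 of 10 members called as deposited, Hpgd, and none after rescaling, where 1.89% and 0.952% of all genes were called. These lungs share the naïve aged controls with the HDM comparison. Hpgd was lower in 34 of 35 pairs, with a log2 fold change of -1.02 ± 0.23 (adjusted p = 0.0316) as deposited and -0.81 ± 0.21 (adjusted p = 0.0622) after rescaling. HDM + Dex replicate 5, at 229 CPM, was the lung that overlapped the naïve aged group. The deposited call was lost without naïve aged replicate 1, 3, 4 or 5 or HDM + Dex replicate 1, 2 or 6 (adjusted p = 0.0590 to 0.0956), and the rescaled difference passed without HDM replicate 2 (0.0322) or HDM + Dex replicate 5 (0.0310). Relative to the endothelial markers, every HDM + Dex lung (-3.54 to -2.83) lay below every naïve aged lung, a separation whose share over other genes was not computed. At an unadjusted p under 0.05, 4 of 10 members differed as deposited and 3 of 10 after rescaling by limma, beside 21.2% and 15.8% of all genes. Among these, Ptges, at 13.7, 23.3 and 39.8 CPM (lowest, median, highest), had a log2 fold change of 0.66 ± 0.19 (adjusted p = 0.0702) as deposited and 0.86 ± 0.22 (0.0601) after rescaling. It passed without HDM + Dex replicate 5, its lowest lung (adjusted p = 0.0268 as deposited and 0.0232 rescaled), and after rescaling also without HDM replicate 3 (0.0461) or HDM + Dex replicate 7 (0.0437). Ptgis had a log2 fold change of -0.56 ± 0.17 (adjusted p = 0.0865) as deposited and -0.36 ± 0.16 (0.265) after rescaling, and passed as deposited without HDM + Dex replicate 7 (0.0326). Ptgs2 was at -0.56 ± 0.23 (adjusted p = 0.178) and -0.37 ± 0.21 (0.408).

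The balance of Ptges to Ptgis within a lung, which depends on neither the depth nor the scaling, was described as the log2 ratio of their CPM. It compares groups and not the levels of both enzymes, whose lengths differ, and it carries no test. Naïve aged lungs had -0.47, -0.63, -0.42, -0.73 and -1.01, and naïve adult lungs -1.33 to -0.59. HDM lungs had -0.51, -0.014 and 0.94 (lowest, median, highest), and 6 of the 7 lay above every naïve lung. HDM + Dex lungs had 0.018, 0.77 and 1.22, all above every naïve lung of either age. The mean was -0.65 ± 0.24 (SD) for naïve aged, 0.099 ± 0.46 for HDM and 0.64 ± 0.50 for HDM + Dex. Among single genes, 2.40% did not overlap between HDM + Dex and naïve aged lungs as deposited and 2.18% after rescaling. For ratios of 2 genes the share was not computed.

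**Figure D4:**
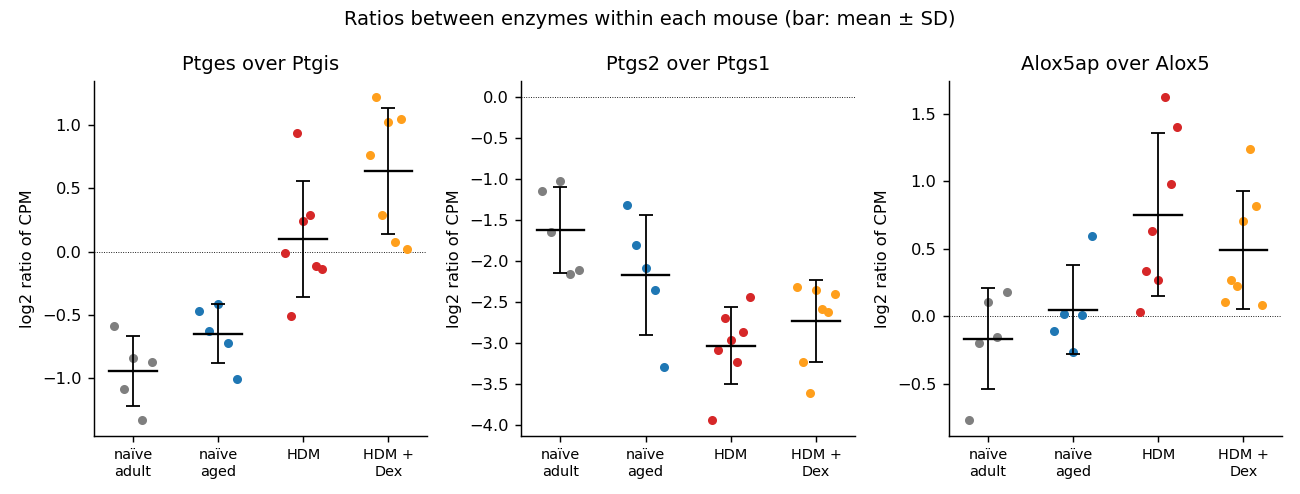
Log2 ratios of CPM within each lung for Ptges over Ptgis, Ptgs2 over Ptgs1 and Alox5ap over Alox5 (points), with the mean and SD of each group (black). Ptges over Ptgis separates HDM + Dex lungs (0.018 to 1.22) from naïve aged lungs (-1.01 to -0.42), and the other ratios overlap between the aged groups.

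The other ratios overlapped among the aged groups. Ptgs2 over Ptgs1 was -2.17 ± 0.73 (SD) for naïve aged, -3.03 ± 0.47 for HDM and -2.73 ± 0.50 for HDM + Dex, and all naïve adult lungs (-2.16 to -1.03) lay above all lungs of both HDM groups. Naïve adult lungs differ from those groups in age, treatment and sex at once, which cannot be told apart. How many other ratios separate them was not computed. Alox5ap over Alox5 was 0.050 ± 0.33, 0.75 ± 0.60 and 0.49 ± 0.44, and Ltc4s over Lta4h -4.50 ± 0.57, -4.82 ± 0.67 and -4.51 ± 0.75. Ptgs2 over Hpgd, the inducible synthesis enzyme over the breakdown enzyme, was -4.88 ± 0.30, -4.09 ± 1.02 and -4.50 ± 0.63, with a spread in HDM lungs from -5.64 to -2.70.

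Between naïve aged and naïve adult lungs, none of the 10 members was called under either scaling, where 0.654% of all genes were called as deposited and 1.05% after rescaling. At an unadjusted p under 0.05, Ptgs1 alone of the 10 differed, under both scalings, beside 11.2% and 13.8% of all genes. Its CPM were 18.1, 29.4, 28.7, 31.6 and 29.9 in naïve adult lungs, and its log2 fold change was 0.64 ± 0.24 (adjusted p = 0.321, limma) as deposited and 0.44 ± 0.19 (0.334) after rescaling. Aged lungs were higher in 21 of 25 pairs. Alox12 (3.31, 6.52, 5.94, 9.14 and 5.11 CPM in naïve adult lungs) had a log2 fold change of 0.53 ± 0.28 (adjusted p = 0.492) as deposited and 0.35 ± 0.25 (0.563) after rescaling. Hpgd had 122, 245, 206, 381 and 307 CPM in naïve adult lungs, a range that held all of the naïve aged values. All naïve adult mice were female, so age and sex cannot be told apart for the male aged mice.

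Per kilobase of merged exons, Hpgd was the most abundant member in every group, at 168 ± 25.4 CPM per kb (SD, n = 5) in naïve aged and 71.4 ± 27.98 (n = 7) in HDM lungs, and its lowest lung in any group (38.4) lay above the highest lung of any other member (22.01, Alox5ap). In naïve aged lungs it was followed by Ptgs1 (11.7 ± 4.58), Alox5ap (9.19 ± 2.72) and Ptgis (8.99 ± 2.19), whose neighbours in this order differed by less than their spread. Lta4h (6.03 ± 0.682) lay below these and above Ptges (3.69 ± 0.545) by more than the SD of either neighbour. From Ptges through Alox5 (3.05 ± 0.897), Alox12 (2.28 ± 0.826), Ptgs2 (2.09 ± 0.280) and Ltc4s (1.73 ± 0.752), each neighbour again differed from the next by less than the larger SD of the pair. In HDM + Dex lungs Ptges (6.18 ± 2.06) ranked 4, beside Ptgis (5.94 ± 1.35). Overlapping genes on the other strand are annotated for Alox5ap, Ltc4s, Ptgs1 and Ptgis, and one on the same strand for Ptges.

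For the other members, the gene most like each over the same 24 lungs was Plcb2 for Alox5 (Pearson r = 0.88), Nfam1 for Alox5ap (0.81), Rps23rg1 for Ltc4s (0.79), Gpank1 for Lta4h (0.85), Limk1 for Ptgs1 (0.87), 4731419I09Rik for Ptgs2 (0.82), Aqp11 for Ptges (0.87) and Usp20 for Ptgis (0.77). Il4ra, a chain of the interleukin-4 receptor, was next for Ptgs1 (0.85). No member was the most like gene of another member.

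Other genes of the pathway were taken from lists. Of 9 further synthesis genes tested, 2 were called higher and 2 lower in HDM vs. naïve aged, and 2 higher and 1 lower after rescaling. Among all genes, 25.3% were called in either direction as deposited, and 11.0% higher and 11.5% lower after rescaling. Tbxas1, thromboxane synthase, had 10.8 to 17.2 CPM in naïve aged and 17.2 to 42.0 CPM in HDM lungs, with a log2 fold change of 1.07 ± 0.21 (adjusted p = 0.00152). Alox15, the 12/15-lipoxygenase, was at 0.101 to 1.02 CPM in naïve aged and 1.84 to 48.7 CPM in HDM lungs, a log2 fold change of 2.72 ± 0.65 (adjusted p = 0.00537) that understates the ratio because of the added 1 CPM. Ptges3, a cochaperone that is also listed as a prostaglandin E synthase, was lower (-0.60 ± 0.15, adjusted p = 0.00599), as was Mgst3 (-0.64 ± 0.22, adjusted p = 0.0356), a microsomal glutathione transferase. Mgst3 no longer passed after rescaling (adjusted p = 0.0710), nor in 7 of the 19 fits that left out 1 lung (0.0534 to 0.0930), and Ptges3 did (0.0104) and was then also called higher in HDM + Dex vs. HDM (0.34 ± 0.084, adjusted p = 0.0332). With 7SL share as a covariate, Alox15 (adjusted p = 0.321, limma) and Ptges3 (0.223) did not pass in HDM vs. naïve aged, nor did Mgst3. Alox15 and Ptges3 each passed in 33 of 34 alternatives, and Tbxas1 in all 34.

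Of 7 prostanoid receptors tested, 2 were called higher and 1 lower in HDM vs. naïve aged, under both scalings. Beside this, 25.3% of all genes were called in either direction as deposited, and 11.0% higher and 11.5% lower after rescaling. Ptgir, the prostacyclin receptor, had 2.90 to 5.33 CPM in naïve aged and 8.57 to 20.3 CPM in HDM lungs, with a log2 fold change of 1.32 ± 0.21 (adjusted p = 0.000492), and it was also called higher in HDM + Dex vs. naïve aged (1.14 ± 0.21, adjusted p = 0.00877). Ptgfr, the prostaglandin F receptor, went the other way, from 10.4 to 20.96 CPM in naïve aged to 2.52 to 10.6 CPM in HDM lungs (-1.59 ± 0.27, adjusted p = 0.000665). It was lower in HDM + Dex vs. naïve aged as deposited (-1.05 ± 0.27, adjusted p = 0.0470) but did not pass after rescaling (0.0935), nor in 12 of the 19 fits that left out 1 lung (0.0505 to 0.147). Ptger4, a prostaglandin E2 receptor, had a log2 fold change of 0.57 ± 0.21 in HDM vs. naïve aged (adjusted p = 0.0476 as deposited and 0.00271 after rescaling). The deposited call held in 16 of 34 alternatives and was lost in 14 of the 19 fits that left out 1 lung (adjusted p = 0.0519 to 0.140), all but those without naïve aged replicate 3, HDM replicate 2 or HDM + Dex replicates 3, 4 or 7. After rescaling, Ptger4 was called lower with Dex (-0.75 ± 0.16, adjusted p = 0.0183; -0.70 ± 0.19 and 0.0734 as deposited).

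**Figure D5:**
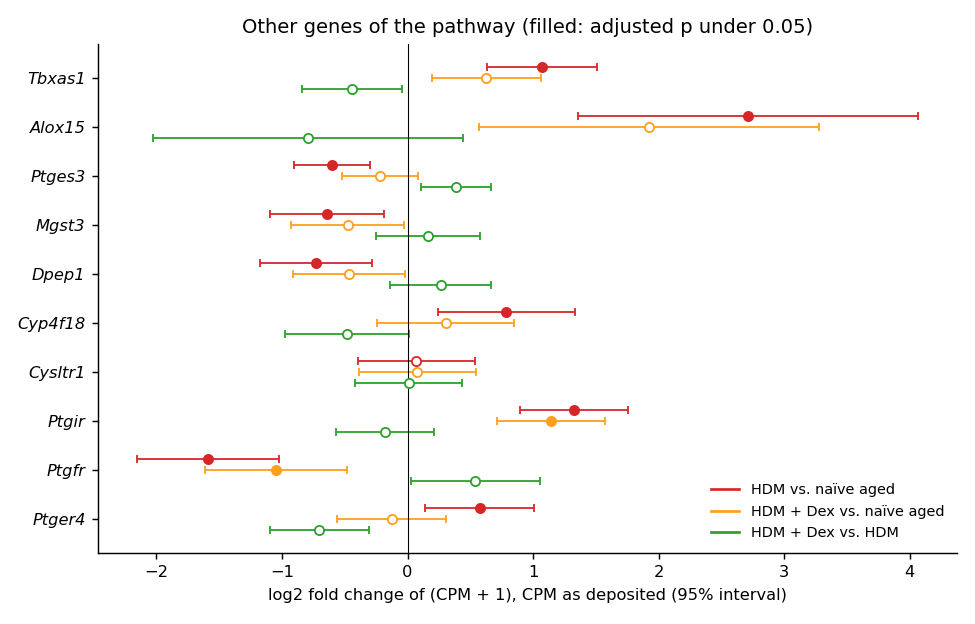
Log2 fold changes of (CPM + 1), CPM as deposited, with 95% intervals for the 10 other pathway genes named by rule, in HDM vs. naïve aged (red), HDM + Dex vs. naïve aged (orange) and HDM + Dex vs. HDM (green); filled points have an adjusted p under 0.05. Ptgir (1.32 and 1.14) and Ptgfr (-1.59 and -1.05) are filled against naïve aged in both HDM groups, and no green point is filled.

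Of 9 genes of leukotriene conversion, breakdown and transport tested, 1 was called higher and 1 lower with HDM as deposited. Called genes made up 25.3% of all genes in that comparison. Cyp4f18, which oxidizes leukotriene B4, had 3.81 to 9.75 CPM in naïve aged and 5.89 to 16.6 CPM in HDM lungs (0.79 ± 0.26, adjusted p = 0.0326), and did not pass in 6 of the 19 fits that left out 1 lung (0.0608 to 0.104). Dpep1, a dipeptidase that converts leukotriene D4 to E4, had a log2 fold change of -0.73 ± 0.21 (adjusted p = 0.0170) as deposited and did not pass after rescaling (0.0734). Of the leukotriene receptors listed, 3 were tested and none was called in any of the 4 comparisons by limma, nor had any an unadjusted p under 0.05. Cysltr1, the receptor with the highest mean CPM, had 2.87 to 7.84 CPM in naïve aged and 3.48 to 7.30 CPM in HDM lungs, with a log2 fold change of 0.070 (95% interval -0.40 to 0.54).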

How the data were processed

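Whole-lung RNA of 24 mice in 4 groups was read from a table of 23891 genes deposited by the authors as CPM (gene counts scaled to the same total in each sample) with a constant of 0.0001 added. The libraries were poly(A)-selected and stranded. The study's methods name STAR, Picard and limma, and the submitters' processing notes name FastQC, STAR, DESeq2 and the build mm9. In the table itself, 23142 of 23276 matched symbols have the gene start of the GRCm38 GENCODE annotation. The counting tool and its strand setting are not given in the sources used here. In each lung 80.1% to 84.4% of low values came out as whole reads. This was most but not nearly all of them, so no count test was run.

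The 17744 genes whose mean reached 1 CPM were tested as log2(CPM + 1) by limma 3.58.1 in R 4.3.3 (lmFit, eBayes with trend). Values on this scale understate the change of low genes. The 3 aged groups shared one fit and both naïve groups had another, with Benjamini-Hochberg adjustment over all genes and a threshold of 0.05. The fits were tested on simulated counts with the same spread for all genes and no difference in 7SL share or sex. That test therefore cannot tell how such differences act on the fits. Estimated depth was 10.1 to 33.1 M reads, at which 3 reads correspond to 0.0906 to 0.298 CPM, a limit that covers counting error only. Alternatives were pseudocounts of 0.1 and 5, a filter of 5 CPM or none, median-of-ratios or quantile scaling, removal of Rn7s1 and Rn7s2, 7SL share or sex as covariates, sample quality weights, other sets of groups, a replicate block, and leaving out each lung. The fits after rescaling that leave out a lung, the values within sex and 7SL share, and the ratios to marker sums were chosen after seeing the data.

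The members and gene lists were chosen with earlier results of these data known. All 10 members are named. From the lists of other synthesis genes, conversion, breakdown and transport genes, leukotriene receptors and prostanoid receptors, up to 4 called genes per list were named by lowest adjusted p, or otherwise the gene of highest mean CPM. Likeness was Pearson r over 24 lungs of rescaled log2(CPM + 1) with group means removed, for the 3 most similar genes. Promoters were RefSeq sequences, which held 8 of the 10 members. One deposited text file held no measurements and was not used.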

Additional observations from a re-analysis of the deposited data

Results flagged for a closer look

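In 7 of 40 groups of a member's values, 1 lung stood apart from the rest of its group by Dixon's test at the 95% level, where chance gives about 1 in 20, or 2. Naïve adult replicate 1 was low for Alox5ap (6.46 CPM, next lung 10.4), Lta4h (20.99, next 33.6) and Ptgs1 (18.1, next 28.7). This lung had the highest 7SL share, 42.0%, and after rescaling it was the highest of its group for all 3 genes (10.6, 34.3 and 29.6).

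HDM replicate 7 was high for Alox5ap (31.3 CPM, next lung 20.8) and Ltc4s (3.63, next 1.79). HDM + Dex replicate 7 was high for Ltc4s (4.01 CPM, next 1.94). HDM + Dex replicate 5 was high for Hpgd (229 CPM, next 141), the only lung of that group whose Hpgd overlapped the naïve aged range. The cause was not tested for any of these values.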

How the results depend on the processing

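Over the alternatives of single results, 629 of 741 kept their direction and side of the threshold, as did 799 of 879 fits that left out 1 lung. Most of these results were not called as reported and stayed so, so these numbers do not measure how stable the calls were. Of the called members, Alox12 in HDM vs. naïve aged passed in 19 of 34 alternatives and Hpgd in HDM + Dex vs. naïve aged in 22 of 34. Hpgd in HDM vs. naïve aged passed in all 34. The number of members called in HDM vs. naïve aged (2) became 1 with no filter or with 7SL share as a covariate, 5 after rescaling, with quantile normalization or without Rn7s1 and Rn7s2, and 6 with sample quality weights, and it ranged from 1 to 3 when a lung was left out. After rescaling, leaving out a lung gave 1 to 6, with 1 without naïve aged replicate 3. In HDM + Dex vs. naïve aged the number (1) became 0 after rescaling, with quantile normalization, without Rn7s1 and Rn7s2 or with 7SL share as a covariate, 3 with sex as a covariate and 4 with sample quality weights, and 0 to 2 when a lung was left out. In HDM + Dex vs. HDM and in naïve aged vs. naïve adult it stayed at 0. Over all genes, the counts as reported of 4482, 171, 335 and 116 ranged over 1571 to 7876, 1 to 611, 34 to 5471 and 65 to 784, and over 2954 to 5338, 2 to 544, 66 to 772 and 74 to 154 when a lung was left out. The lowest for HDM + Dex vs. HDM came from fitting only these groups. The causes were not tested. The lungs were treated as unpaired. Of 32 same-numbered pairs, 4 had a correlation over 0.1, the highest 0.40 in HDM and HDM + Dex. In those groups the median was -0.093 for same-numbered and -0.021 for other pairs. The share of other pairs over 0.1 was not computed, so pairing by replicate number was not settled. With a replicate block, 2 members were called in HDM vs. naïve aged (3 with rescaling), 0 in HDM + Dex vs. HDM, 2 in HDM + Dex vs. naïve aged (0 with rescaling) and 0 between ages. Sex could not be fitted between ages, where all adults were female.

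Signs changed in 68 fits of 16 results, 0 of them past the threshold. After rescaling, the log2 fold changes of opposite sign were Alox5 0.033, Ltc4s 0.066, Ptgis 0.0047 in HDM vs. naïve aged, Alox5 -0.024 in HDM + Dex vs. HDM, Alox5 0.0089, Ltc4s 0.10, Lta4h 0.14, Ptgs1 0.13 in HDM + Dex vs. naïve aged and Alox5 -0.077, Lta4h -0.0065, Ptgs2 -0.099 in naïve aged vs. naïve adult. With quantile normalization, the log2 fold changes of opposite sign were Alox5 0.0032, Ltc4s 0.14 in HDM vs. naïve aged, Alox5 -0.012, Ltc4s -0.023 in HDM + Dex vs. HDM, Ltc4s 0.11, Lta4h 0.14, Ptgs1 0.13 in HDM + Dex vs. naïve aged and Alox5 -0.086, Ltc4s -0.014, Ptgs2 -0.10 in naïve aged vs. naïve adult. Without Rn7s1 and Rn7s2, the log2 fold changes of opposite sign were Alox5 0.016, Ltc4s 0.064 in HDM vs. naïve aged, Alox5 -0.031 in HDM + Dex vs. HDM, Ltc4s 0.092, Lta4h 0.11, Ptgs1 0.10 in HDM + Dex vs. naïve aged and Alox5 -0.029, Ptgs2 -0.051 in naïve aged vs. naïve adult. With the replicate block and rescaling together, the log2 fold changes of opposite sign were Alox5 0.084, Ptgis 0.015 in HDM vs. naïve aged, Alox5 -0.024 in HDM + Dex vs. HDM, Alox5 0.061, Lta4h 0.14, Ptgs1 0.15 in HDM + Dex vs. naïve aged and Alox5 -0.077, Lta4h -0.0065, Ptgs2 -0.099 in naïve aged vs. naïve adult. With 7SL share as a covariate, the log2 fold changes of opposite sign were Ltc4s 0.42 in HDM vs. naïve aged, Ltc4s -0.047 in HDM + Dex vs. HDM, Ltc4s 0.38, Lta4h 0.0094 in HDM + Dex vs. naïve aged and Hpgd -0.14 in naïve aged vs. naïve adult. With a pseudocount of 5, the log2 fold changes of opposite sign were Alox5 -0.0030 in HDM + Dex vs. HDM and Ltc4s 0.0016 in HDM + Dex vs. naïve aged. With sample quality weights, the log2 fold changes of opposite sign were Alox5 -0.073 in HDM + Dex vs. HDM and Ptgs1 0.012 in HDM + Dex vs. naïve aged. With sex as a covariate, the log2 fold changes of opposite sign were Ltc4s -0.029 in HDM + Dex vs. HDM. Leaving out 1 lung also changed the sign of some small log2 fold changes, whose ranges were Ltc4s -0.22 to 0.057 in HDM vs. naïve aged, Alox5 -0.15 to 0.17 in HDM + Dex vs. HDM, Ltc4s -0.095 to 0.20 in HDM + Dex vs. HDM, Ptgs2 -0.25 to 0.011 in HDM + Dex vs. HDM, Ltc4s -0.17 to 0.12 in HDM + Dex vs. naïve aged, Ptgs1 -0.24 to 0.11 in HDM + Dex vs. naïve aged and Ptgis -0.19 to 0.11 in naïve aged vs. naïve adult. Depth limits Ltc4s most, at 5.11 to 120 estimated reads per lung.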
